A study of Mus musculus with 4 samples.

Results

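B cell precursor-like cells of mouse bone marrow were taken here as the cells that carried RNA of both the B cell receptor signalling chains and the surrogate light chain. A barcode was kept as a cell when it had 500 or more UMIs (unique molecular identifiers, each standing for 1 captured RNA molecule), 200 or more genes, and no more than 10% of its UMIs from mitochondrial genes. A kept cell was counted as a member when it held 2 or more UMIs of Cd79a plus Cd79b, 2 or more of Vpreb1 plus Igll1 plus Vpreb3, and none of Cd3e, a T cell receptor chain. The rule found 293 cells among 16280, or 1.80%.

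The 4 libraries came from transplanted host mice, 2 with Idh1-WT and 2 with Idh1-R132H donor marrow. Idh1 encodes the cytosolic isocitrate dehydrogenase, and the R132H form is a cancer mutation that makes 2-hydroxyglutarate. In donor mice, 5 days of tamoxifen recombined an EYFP reporter and, in the mutant group, 1 allele of Idh1-R132H. After 2 weeks EYFP+ lineage-negative marrow was moved into irradiated hosts with no supporting marrow, and the hosts' marrow was taken 16 weeks later. From each host 4000 live EYFP+ CD45.1+ cells of total marrow, 4000 Lin-Sca1+cKit+ (LSK) cells and 4000 Lin-cKit+ (LK) cells were sorted into a single tube, so that each library is 1 chimeric mouse. Each also holds an excess of progenitors over whole marrow, so no share below is a share of marrow. The labels do not give the Cre driver, the age or the sex of donors and hosts.

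B cells form in marrow along an ordered path. Pro-B cells carry the recombinases Rag1 and Rag2 and the nucleotide-adding enzyme Dntt and rearrange the heavy chain locus. A heavy chain that is made in frame pairs with the surrogate light chain, built of Vpreb1 and Igll1, to form the pre-B cell receptor, which signals through Cd79a and Cd79b and goes with a burst of division of large pre-B cells. These cells then stop dividing, lose Vpreb1 and Igll1, turn the recombinases on again for the light chain loci, and become immature B cells with a complete receptor and rising MHC class II. Vpreb3 is a related protein that binds assembling receptor chains in the endoplasmic reticulum. Ebf1 and Pax5 are the transcription factors that set and hold B cell identity. Immunoglobulin RNA was not analysed here, so heavy and light chain status was not used to place cells.

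The 250 bases before the RefSeq start of the 3 surrogate light chain genes of the rule are shown as a description. Vpreb1 and Igll1 were mostly detected in the same cells, and Vpreb3 far more widely (below). The rule in part sets this, since cells without Vpreb1 or Igll1 were members only with Vpreb3. The bases are printed in the direction of transcription, from build GRCm38.p6. Vpreb1 lies at chr16:16869256-16869505 and Igll1 at chr16:16863986-16864235, both on the minus strand, and Vpreb3 at chr10:75948050-75948299 on the plus strand. Capitals mark the E-box CAGGTG, a sequence bound by E proteins such as Tcf3, read on either strand (CACCTG on the other), and the octamer ATTTGCAT, a sequence bound by POU factors, also read on either strand.
Vpreb1: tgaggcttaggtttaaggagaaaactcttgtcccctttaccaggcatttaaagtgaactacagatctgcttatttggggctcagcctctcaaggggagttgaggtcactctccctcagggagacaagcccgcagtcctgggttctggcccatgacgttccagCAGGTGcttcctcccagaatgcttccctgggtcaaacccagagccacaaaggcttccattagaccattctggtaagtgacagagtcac
Igll1: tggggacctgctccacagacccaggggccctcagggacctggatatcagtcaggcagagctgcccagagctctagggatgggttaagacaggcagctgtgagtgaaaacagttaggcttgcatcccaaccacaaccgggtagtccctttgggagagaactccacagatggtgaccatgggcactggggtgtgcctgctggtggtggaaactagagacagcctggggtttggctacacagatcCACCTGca
Vpreb3: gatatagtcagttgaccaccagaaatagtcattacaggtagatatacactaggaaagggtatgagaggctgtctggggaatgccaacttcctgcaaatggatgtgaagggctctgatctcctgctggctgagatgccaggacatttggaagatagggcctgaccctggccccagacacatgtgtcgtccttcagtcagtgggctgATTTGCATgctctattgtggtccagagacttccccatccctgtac
The Vpreb1 and Igll1 windows each held 1 E-box of these letters, beginning 88 and 8 bases before the start, and no octamer. The Vpreb3 window held 1 octamer, beginning 45 bases before the start, and no E-box of these letters. Of 32851 RefSeq promoter windows of the same length, 17.2% held the E-box and 1.6% the octamer. A palindrome bound by Ebf1 was searched as well and was in none of the 3 windows and in 0.779% of all. These matches describe the letters only.

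Idh1-WT 1 and 2 gave 65 and 100 members, and Idh1-R132H 1 and 2 gave 58 and 70. The libraries held 40364701 to 56353466 UMIs in all, of which 389394 to 533410 were in members. The median member had between 1985 and 3635.5 UMIs, against 7228 to 8707 for all kept cells of the same libraries. No member barcode was shared between libraries, although 443 kept barcodes occurred in 2 or more. Idh1-WT 1 and Idh1-R132H 1 shared 345 kept barcodes, and every other pair 13 to 33. The cause of this was not tested. No doublet caller was run on so few cells, and UMIs of other lineages were counted in their place.

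Of the 293 members, 196 (66.9%) held 3 or more UMIs of a list of other-lineage genes, Elane and Mpo among them. High counts of Elane plus Mpo set 21 of the 293 cells apart. They carried 50 or more UMIs of Elane plus Mpo, the granule proteins of neutrophil precursors, with a median of 677 and a range of 50 to 1118, whereas the other 272 had a median of 3 and none above 26. The 21 cells had a median of 26752 UMIs against 2031, a median of 3 Cd79 UMIs against 13.5, and a median of 2 surrogate light chain UMIs, the lowest number the rule allows, against 7. Ebf1 was absent from 19 of the 21 and present in 264 of the other 272 (97.1%), at a median of 5.5 UMIs. The label of B cell precursor therefore went against the markers of most of the 21 cells, 2 of which did carry Ebf1, with 22 and 10 UMIs. Among the 272, 125 cells described below as the MHC class II gate had no UMI of Vpreb1, Igll1, Rag1 or Rag2 and carried MHC class II and Cd74 RNA at high levels, so that these precursor markers were not detected in them. Of the 21 Elane and Mpo-rich cells, the wild-type libraries had 5 and 4 and the mutant ones 9 and 3. These 21 cells held 27.4%, 21.0%, 50.7% and 18.8% of the members' UMIs by library. Levels and stages below are those of the 272 cells unless stated, and each result over all 293 is given with and without the 21. This bound was set after the values were seen.

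**Figure D1:**
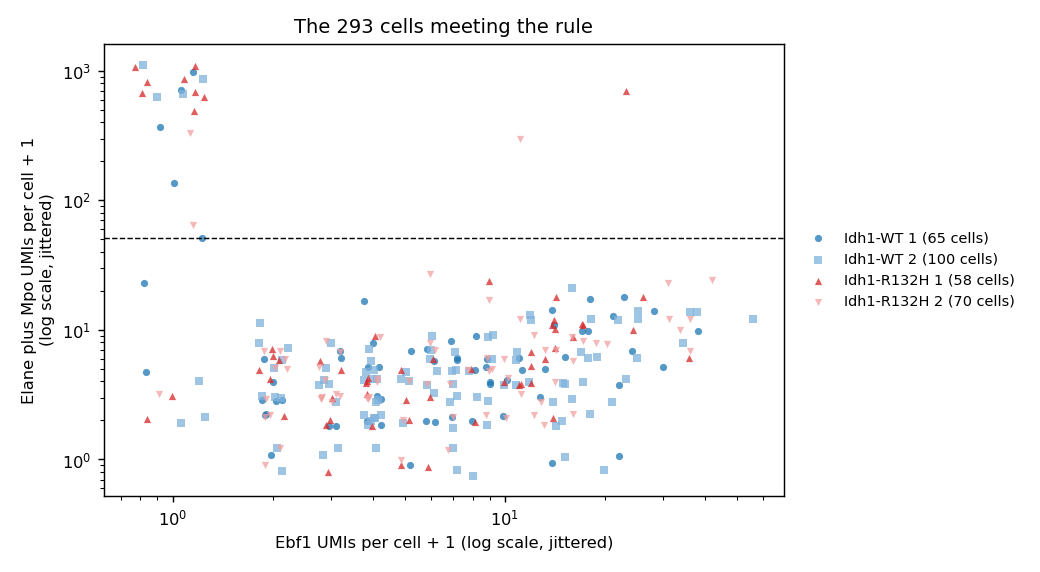
Each point is 1 of the 293 cells, by library, with its Ebf1 UMIs on the x axis and its Elane plus Mpo UMIs on the y axis (both plus 1, log scales, jittered); the dashed line is the bound of 50. The 21 cells above the line carry up to 1118 Elane and Mpo UMIs and 19 of them lack Ebf1, while 264 of the 272 below it carry Ebf1.

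The threshold of the rule ran through a mixed zone. Cells with exactly 2 surrogate light chain UMIs, just inside, numbered 71, and 71.8% of them had an Ebf1 UMI. Cells that met the Cd79 condition with 1 such UMI, just outside, numbered 197, of which 42.1% had an Ebf1 UMI and 45.7% were rich in Elane and Mpo. The 175 cells with 5 or more had Ebf1 in 98.3% and Elane and Mpo richness in 1.71%.

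The 272 cells were split by genes that the rule did not use, in a fixed order. Cells with 5 or more UMIs of 16 G2 and M phase genes formed the cycling gate. Of the rest, cells with any UMI of Dntt or the stem cell factor receptor Kit formed the Dntt or Kit gate, and then cells with 5 or more UMIs of Ms4a1 (CD20), H2-Aa, H2-Ab1 and H2-Eb1 formed the MHC class II gate. What was left is called the remaining gate. The cycling gate held 95 cells, the Dntt or Kit gate 8, the MHC class II gate 125 and the remaining gate 44. These are ranges on a scale and not cell types. Few cells lay near the bound for cycling, with 11 at 3 or 4 UMIs and 3 at 5 to 7. For MHC class II 9 lay just below and 11 just above in the same windows. Depth moved with the gates, since median UMIs were 6733, 7030, 1787 and 1562 in that order. Levels are therefore given as counts per 1000000 UMIs of the summed cells (CPM), and shares of cells also after each cell was thinned to 1500 UMIs. Because the cells were chosen by expression, contrasts between gates are descriptions with no test.

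Vpreb1 and Igll1 were found in dividing cells and almost nowhere else among the members. Either RNA was detected in 50 of the 95 cycling cells, and in 11 of 25, 19 of 32, 10 of 19 and 10 of 19 by library. It was also detected in 2 of the 8 cells of the Dntt or Kit gate, both from Idh1-WT 2. None of the 125 MHC class II cells had a UMI of either, which allows a share of up to 2.40%, and none of the 44 remaining cells did, which allows up to 6.82%. These limits cover counting error only, and they are limits on cells with a UMI at median depths of 1787 and 1562 UMIs, not on cells expressing the genes. At equal depth the pattern was the same, with Igll1 in 33.7% and Vpreb1 in 25.3% of 95 cycling cells and in none of the 104 MHC class II and 28 remaining cells deep enough to be thinned. In neutrophil-gated cells, which should lack both and so show the free RNA, the shares were 0.10% and 0.05% of 2000 cells at that depth. The median depths before thinning were 6733 UMIs in cycling cells and 2779.5 in neutrophil-gated cells. The Igll1 level in cycling cells was 733 and 871 CPM in wild-type libraries and 791 and 872 CPM in Idh1-R132H. The Vpreb1 level there was 308 and 620 against 383 and 659 CPM. Both genes were present in all 4 libraries with overlapping groups. Vpreb1 has a near-identical copy, Vpreb2, whose reads may be shared with it, and Vpreb2 read 36.2, 44.8, 30.6 and 46.4 CPM in the same cells. The 2 partners went together per cell, since 41 cells held both among the 45 with Vpreb1 and the 48 with Igll1.

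Vpreb3 set the membership of all other cells. It was detected in 271 of the 272, and 220 cells had Vpreb3 as their only surrogate light chain RNA. Its level was 2128 CPM in the cycling gate, 2115 CPM in the MHC class II gate and 5577 CPM in the remaining gate. In the remaining gate it was 5396 and 6892 CPM in wild-type libraries and 5368 and 4748 CPM in Idh1-R132H. Every library of that gate lay above every library of the other 2, where the highest value was 2483 CPM. Vpreb3 is a gene of the rule, and cells without Vpreb1 or Igll1 were members only with 2 or more UMIs of it. At median depths of 1787 UMIs (MHC class II) and 1562 (remaining), against 6733 (cycling), the rule puts a floor under these levels. They are therefore not read against the cycling gate. In cells of the mature B gate (2 or more Cd79 UMIs, at most 1 surrogate light chain UMI, at least 1 of Ms4a1), where the rule itself caps it, Vpreb3 was 82.2 CPM.

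**Figure D2:**
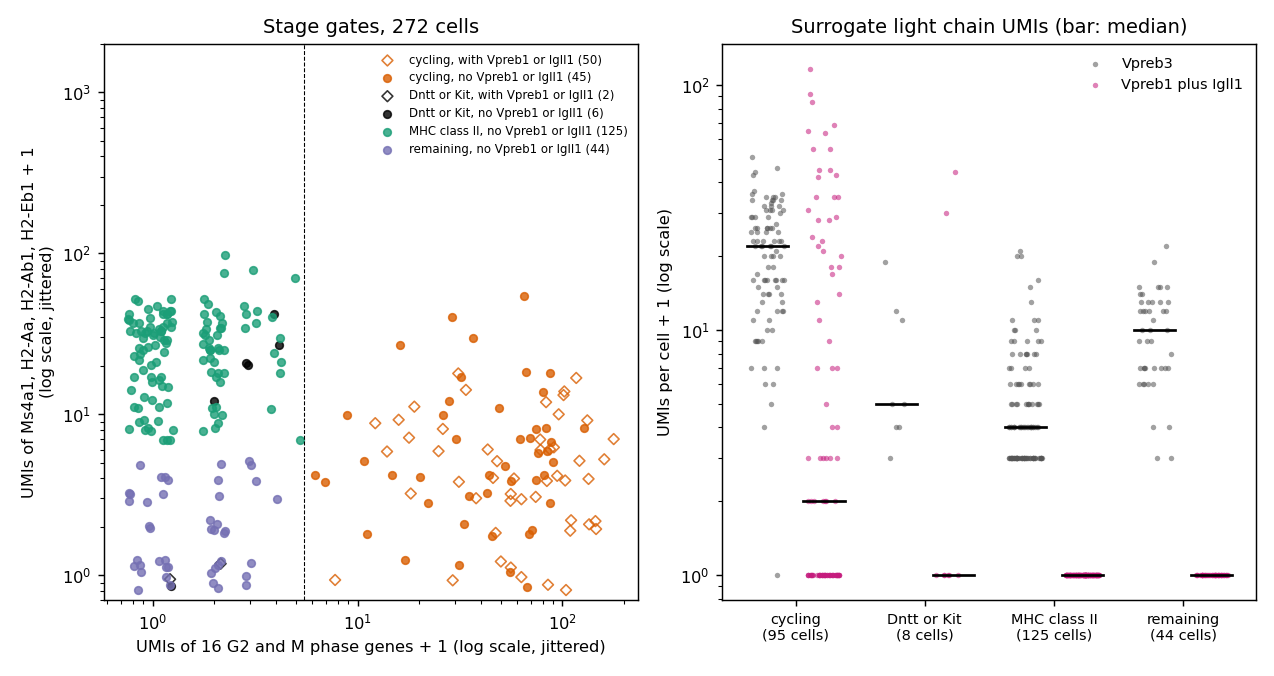
Left, each of the 272 cells by its UMIs of 16 G2 and M phase genes (x axis) and of Ms4a1 and 3 MHC class II genes (y axis), both plus 1 on log scales with jitter, coloured by gate, with open diamonds for cells with Vpreb1 or Igll1. Right, UMIs per cell of Vpreb3 (grey) and of Vpreb1 plus Igll1 (pink), plus 1 on a log scale, with bars at the median. Vpreb1 or Igll1 is present in 50 of 95 cycling cells and in no cell of the MHC class II and remaining gates, while Vpreb3 is present in 271 of 272.

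Ebf1 was highest in the same gate as Vpreb3. Its level was 1573 CPM in the cycling gate, 1460 CPM in the MHC class II gate and 5759 CPM in the remaining gate, where the 4 libraries read 7244, 6467, 5492 and 4608 CPM. Cd79a and Cd79b, the signalling chains of the receptor, are genes of the rule. As for Vpreb3, the rule puts a floor under their levels that lies higher in the gates of lower depth. Their values are given as a description and not read against the cycling gate. Cd79a was 1243 CPM in cycling cells against 3937 CPM in remaining and 4465 CPM in MHC class II cells. Cd79b was 611 CPM against 3307 and 2829 CPM. Pax5 was 74.8, 84.1 and 86.3 CPM in the same order and so differed little between the gates, but it was thinly sampled, with a UMI in 12.3% of thinned cells.

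Within the cycling gate, the 50 cells with Vpreb1 or Igll1 and the 45 without differed in more than those genes. Cells with them were larger by RNA, with a median of 12707.5 UMIs against 4521, and this gap in depth also bears on detection of the 2 genes. Among the genes with the largest folds toward the cells with them, Cdca7, a chromatin factor of S phase, was 181 against 32.3 CPM, the chaperonin Hspd1 394 against 101 CPM, the cytokine Mif 1458 against 420 CPM, the nucleotide kinase Nme1 812 against 234 CPM and the glycolytic enzyme Ldha 864 against 275 CPM. Each was higher in all 4 libraries. Among the genes with the largest folds toward the cells without them, Ms4a1 was 4.44 CPM with and 372 CPM without, Cd74 (the MHC class II invariant chain) 80.0 against 1899 CPM, the IgM receptor Fcmr 0 against 218 CPM, Ly6d 113 against 998 CPM and the BAFF receptor Tnfrsf13c 17.8 against 182 CPM. Malat1, a nuclear RNA, was 4108 against 13223 CPM. Neutrophil RNA was present beside these in some cells, since S100a8 was 539 CPM with and 2578 CPM without, and up to 12246 CPM in 1 library of the latter. Its part in the contrast was not tested. Rag2 was 14.8 CPM with and 80.8 CPM without, and the cyclin Ccnd3 was 1004 against 444 CPM. The interleukin 7 receptor Il7r was present in both, at 105 and 174 CPM.

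The remaining gate held the highest Rag1 level of the gates. It was 154 CPM there, from 296, 189, 0 and 105 CPM by library, against 4.34 CPM in cycling and 0 CPM in MHC class II cells. After thinning, Rag1 was found in 21.4% of 28 remaining cells, 2.11% of cycling cells and none of 104 MHC class II cells. With 6 to 15 cells per library in this gate, the value of 0 in Idh1-R132H 1 comes from 6 cells. Its partner Rag2 was 42.0 CPM in the remaining gate, from only 3 UMIs (73.9, 0, 250 and 0 CPM by library), against 32.5 CPM in all cycling cells, and after thinning it was found in 3.57% of remaining and 9.47% of cycling cells. Il7r was 168 CPM in remaining and 3.92 CPM in MHC class II cells, and after thinning it was found in 21.4% of remaining and 26.3% of cycling cells. Il2ra (CD25), a mark of small pre-B cells, was 84.1 CPM, from 6 UMIs, against 11.8 CPM. After thinning it was found in 3.57% of remaining, 1.92% of MHC class II and 2.11% of cycling cells, so it differed little at equal depth. Xrcc6 (Ku70), which joins broken DNA ends, was 350 against 23.5 CPM, and the transcription factor Sox4 280 against 47.1 CPM. Atp1b1, a sodium pump subunit, was 1079 against 78.5 CPM, the signalling adaptor Tifa 827 against 114 CPM and the co-chaperone Dnajc7 3531 against 455 CPM. Each was higher in the remaining gate than in the MHC class II gate in all 4 libraries, except Rag1 and Rag2. Rag1 was at 0 in both gates of Idh1-R132H 1, and Rag2 in both gates of Idh1-WT 2 and of Idh1-R132H 2. Foxo1, which drives the recombinase genes, was 140 against 51.01 CPM.

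The MHC class II gate was the largest. Apart from the 4 genes that define it, Cd74 was 25250 CPM against 2494 CPM in the remaining gate and 568 CPM in cycling cells. H2-DMb2 of the peptide loading machinery was 934 against 28.02 CPM in the remaining gate, and Ltb, a lymphotoxin chain, 1032 against 42.1 CPM. Fcer2a (CD23), a receptor of follicular B cells, was 259 CPM from 269, 324, 189 and 206 CPM by library. It had no UMI in the remaining or the cycling gate. The survival factor Bcl2 was 114 CPM against 0, the cyclin Ccnd2 263 CPM against 0 and the scaffold Bank1 318 against 28.02 CPM. Rag1 and Rag2 had no UMI in this gate. These cells entered on few Vpreb3 UMIs, with a median of 3 per cell against 9 in the remaining gate.

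**Figure D3:**
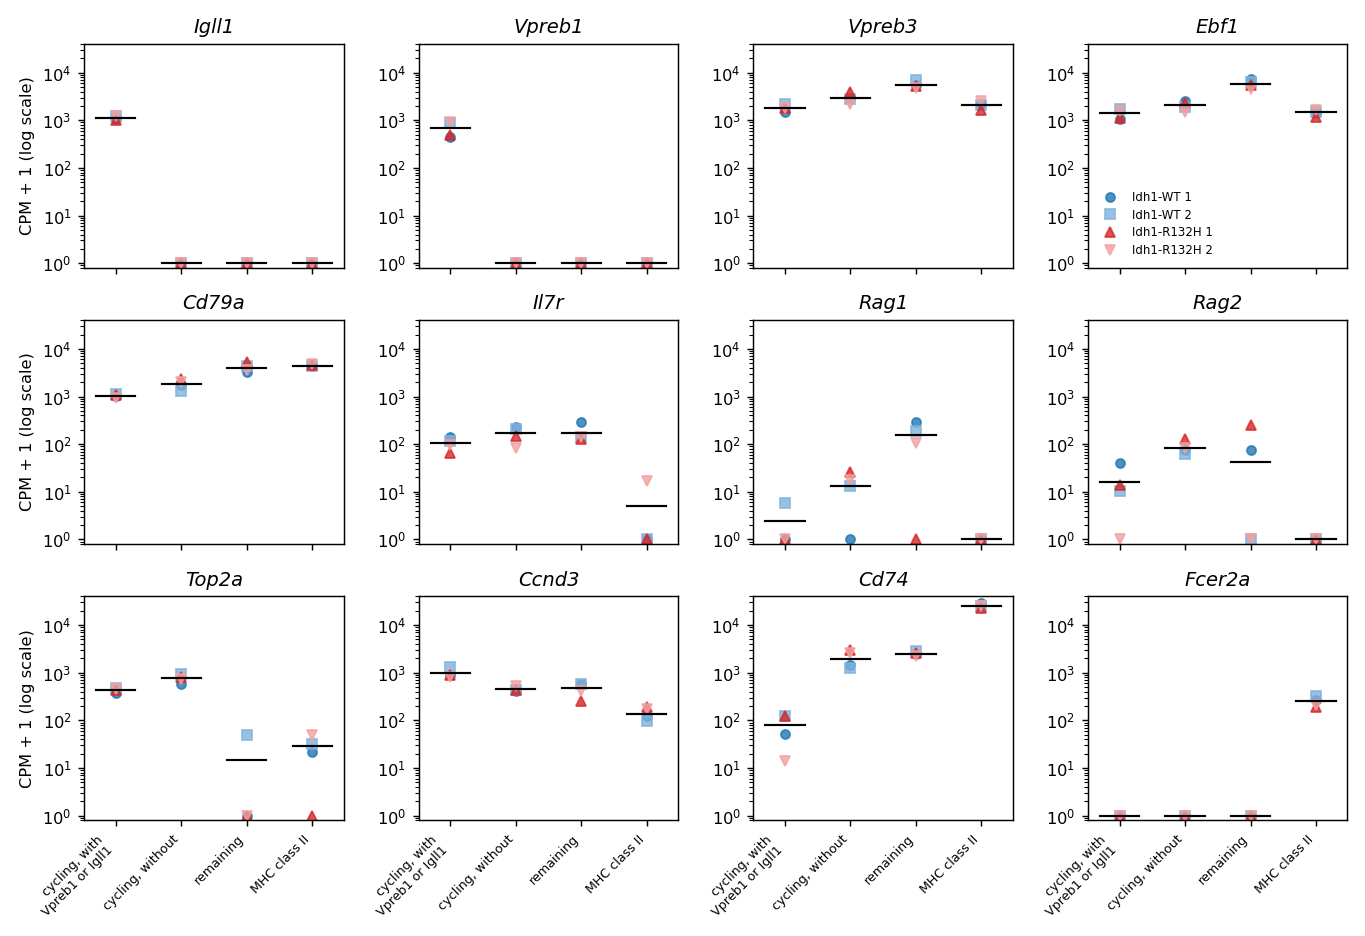
Level of 12 genes in CPM plus 1 (log scale) in the summed cells of 4 groups of the 272 cells, cycling with and without Vpreb1 or Igll1, remaining and MHC class II, with 1 symbol per library and a bar at the pooled level. Rag1 is highest in the remaining gate at 154 CPM pooled, Cd74 rises to 25250 CPM in the MHC class II gate, and Ebf1 peaks in the remaining gate at 5759 CPM.

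The pro-B marks Dntt and Kit were rare. Not all pro-B genes were. After thinning, Il7r was found in 26.3% and the transcription factor Lef1 in 13.7% of cycling cells, against 3.16% for Dntt and 2.11% for Kit. At least 2 UMIs of Dntt were found in 7 of the 272 cells, 6 of them in Idh1-WT 2 and 1 in Idh1-R132H 2, and 6 of the 7 also held Vpreb1 or Igll1. All 293 members together held 3 and 85 Dntt UMIs in Idh1-WT 1 and 2 and 2 and 13 in Idh1-R132H 1 and 2, so that a single library carried most of them. The Dntt or Kit gate itself was mixed. In Idh1-WT 2, 2 of its cells had Dntt, Vpreb1 and Igll1 together and no MHC class II or Ms4a1 UMI. The gate's 4 cells with Kit had 19 to 41 MHC class II and Ms4a1 UMIs and 2 to 4 of Kit, with no Vpreb1 or Igll1.

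The 272 cells were also set beside cells with fewer and with more marks of the B lineage. Lymphoid-primed cells, gated on 2 or more Dntt UMIs and none of Cd79a or Cd79b, numbered 364. There Ebf1 was 1.50 CPM against 1766 CPM in the 272, the adaptor Blnk 4.75 against 219 CPM, the coactivator Pou2af1 0 against 208 CPM and Spib 0.75 against 211 CPM. The cytokine receptor Flt3 was 188 CPM in lymphoid-primed cells and 5.39 CPM in the 272, and Cd34 404 against 35.4 CPM. Against the 277 cells of the mature B gate, the myosin light chain Myl4 was 569 against 19.5 CPM, Tifa 371 against 23.6 CPM, Ccnd3 667 against 88.1 CPM and Cd24a (heat-stable antigen) 1799 against 322 CPM. Chchd10, which ends 5310 bases before the GENCODE vM21 start of Vpreb3 on chromosome 10 (a start further upstream than the RefSeq one of the printed window), was 1337 CPM in the 272, 242 CPM in the mature B gate and 59.5 CPM in lymphoid-primed cells. The mature B gate was not pure, since it held 3931 CPM of Elane and 2004 CPM of the plasma cell gene Jchain, so that differences from it were not read further.

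The labels contrast Idh1-R132H with Idh1-WT, and no difference in the number of members could be shown with 2 libraries a group. Members were 1.44% (95% Wilson interval 1.13 to 1.84) and 2.85% (2.35 to 3.46) of kept cells in Idh1-WT, and 1.51% (1.17 to 1.95) and 1.58% (1.25 to 1.99) in Idh1-R132H. The means were 2.15% ± 0.997 and 1.54% ± 0.0499 (SD, n = 2 each; exact two-sided permutation p = 1). With 2 libraries a group the smallest p that this test can give is 0.33, so none of these shares could pass. Idh1-WT 2 stood above the other 3, which overlapped. Without the 21 cells the shares were 1.33%, 2.74%, 1.28% and 1.51% (exact p = 0.667). As a share of cells with 2 or more Cd79 UMIs and no Cd3e, members were 13.3% and 23.7% against 13.2% and 17.0% (exact p = 0.667). That denominator of 1764 cells was itself 45.9% Elane and Mpo-rich. Among its 560 cells with an Ebf1 UMI, members were 43.6% and 52.8% in wild-type and 37.8% and 54.0% in mutant libraries.

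The shares of the 3 larger stage gates overlapped between the groups. Of 60, 96, 49 and 67 cells by library, 41.7%, 33.3%, 38.8% and 28.4% were cycling, 40.0%, 47.9%, 46.9% and 47.8% were in the MHC class II gate, and 15.0%, 14.6%, 12.2% and 22.4% were remaining. The Dntt or Kit gate held 2, 4, 1 and 1 cells, or 3.33%, 4.17%, 2.04% and 1.49%. That is a higher share in both Idh1-WT libraries than in both Idh1-R132H libraries (exact p = 0.33, the smallest possible). Over all 293 cells the exact p-values of the 4 gates ranged from 0.33 to 1, and all were 1 after Benjamini-Hochberg adjustment over the 4.

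**Figure D4:**
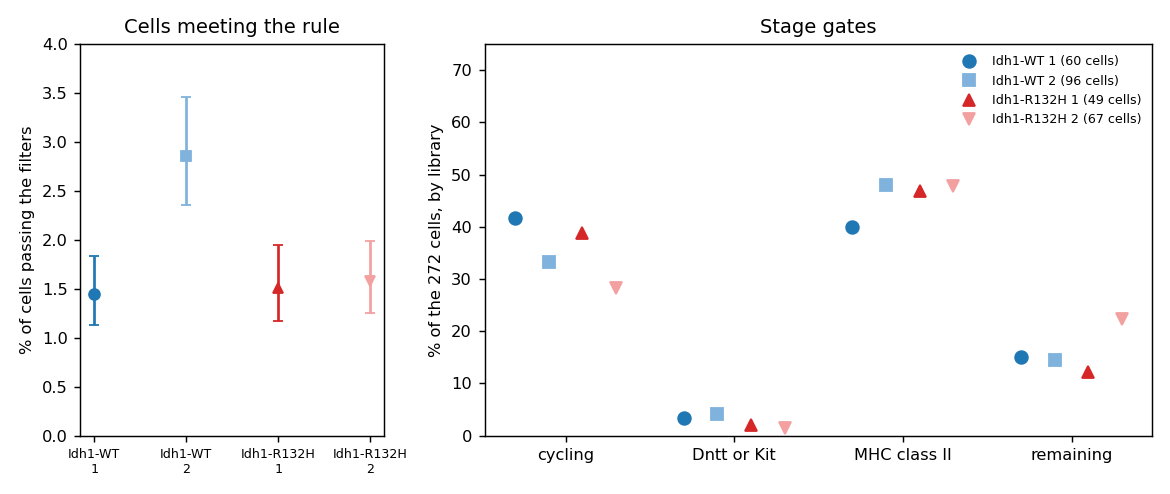
Left, members as a percentage of kept cells in each library, with 95% Wilson intervals. Right, the percentage of each library's members without the 21 Elane and Mpo-rich cells that fell in each stage gate. Idh1-WT 2 has the highest share of members at 2.85%, and the libraries of the 2 genotypes overlap in the cycling, MHC class II and remaining gates.

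Gene by gene, few differences between genotypes passed. UMI counts were summed over the members of each library and tested with edgeR's quasi-likelihood test at a Benjamini-Hochberg adjusted p of 0.05, over all genes that passed a filter on low counts. Over all 293 cells, 0 of 4726 genes were called (0%). DESeq2 called 0 as well, and 213 genes (4.51%) had an unadjusted p under 0.05. Without the 21 cells, edgeR called 4 of 3673 (0.109%), 1 higher (0.0272%) and 3 lower (0.0817%) in Idh1-R132H, with 252 (6.86%) at an unadjusted p under 0.05, whereas DESeq2 called 0. In the 116 cycling members edgeR called 0 of 4016 (0%), with 190 (4.73%) at an unadjusted p under 0.05. In the 95 without the 21 cells it called 0 of 2796 (0%), with 199 (7.12%) at that level. DESeq2 called 0 in both. In the non-cycling members (35, 64, 30 and 48 cells), none of which was among the 21, edgeR called 4 of 1242 (0.322%), 1 higher (0.0805%) and 3 lower (0.242%), with 59 (4.75%) at an unadjusted p under 0.05, and DESeq2 called 1. Nothing in the labels says more of the libraries than that each was made from 1 mouse, so the p-values measure the spread between 2 host mice a group. Each library held cells with Xist and cells with Y-linked RNA (below). How many donors each host had, and whether hosts shared donors, is not known, so the hosts may not be independent donor samples. Fewer cells of a stage and less RNA per cell cannot be told apart in these sums. Where groups are said below not to overlap, this is a description only. With 2 libraries a group such separation has an exact permutation p of 0.33, and the called genes were picked by the edgeR test.

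The 6 genes called in either set lie, on GRCm38 with GENCODE vM21 annotation, at chr5:136693146-136701094 (Myl10, plus strand), chr3:14886273-14900770 (Car2, plus), chr9:37544492-37552904 (Nrgn, minus), chrX:103460366-103483254 (Xist, minus), chr5:142903115-142906754 (Actb, minus) and chr17:34257689-34269419 (H2-Ab1, plus). The counts are of whole genes.

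Myl10, a myosin regulatory light chain gene, had the largest fall by fold over the 272 cells. There it read 137 and 116 CPM in wild-type libraries and 34.5 and 31.6 CPM in Idh1-R132H, so the groups did not overlap. The log2 difference was -1.89 ± 0.34 (SE, n = 2 each; edgeR adjusted p = 0.00083). In non-cycling members it was 317 and 175 CPM against 30.8 and 49.7 CPM (-2.49 ± 0.51; edgeR adjusted p = 0.0459). It rested on 109 UMIs in all, of which the 5 richest cells held 53.3% in Idh1-WT and 68.4% in Idh1-R132H. The 2 cells of the Dntt or Kit gate of Idh1-WT 1 alone held 21 of its 41 UMIs in that library, and 21 of its 25 UMIs in non-cycling members. The neutrophil RNA S100a8 was 53226 CPM in those 2 cells, and its part was not tested. In non-cycling members without the Dntt or Kit gate, Myl10 was 64.7 and 154 CPM in wild-type libraries, from 4 and 18 UMIs, and 21.8 CPM or less in Idh1-R132H, from 1 and 2 UMIs. Without Idh1-R132H 2 the call over the 272 cells was lost (adjusted p = 0.163), though the difference stayed at -1.82. In lymphoid-primed cells, where Myl10 was 795, 203, 349 and 184 CPM by library, the groups overlapped.

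Car2, carbonic anhydrase 2, was 434 and 297 CPM in wild-type libraries and 138 and 183 CPM in Idh1-R132H (-1.12 ± 0.19; edgeR adjusted p = 0.000803). In the cycling gate it was 471 and 351 against 123 and 213 CPM, without overlap. In the MHC class II gate the level was 41.4 and 125 against 21.0 and 79.1 CPM and the groups overlapped. In the remaining gate it was 0 and 47.2 against 125 and 175 CPM, the opposite order, from 7 UMIs. The 5 richest cells held 46.3% of its UMIs in Idh1-WT and 48.9% in Idh1-R132H. Without Idh1-WT 1 the call was lost (adjusted p = 0.0688). Car2 is also abundant in erythroid cells. The other 8 erythroid markers, haemoglobin genes among them, summed to 20.02 and 45.1 CPM in wild-type libraries and 23.0 and 28.5 CPM in Idh1-R132H. Of these 8, 2 had no UMI. Their part was not tested. In lymphoid-primed cells Car2 was 412 and 423 against 506 and 610 CPM, the opposite order.

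Nrgn, a calmodulin-binding protein, was the gene called higher. It was 110 and 135 CPM in wild-type libraries and 268 and 196 CPM in Idh1-R132H (0.91 ± 0.21; edgeR adjusted p = 0.0483). Most of its UMIs were in cycling cells with Vpreb1 or Igll1, where it was 181 and 210 against 404 and 361 CPM. Leaving out Idh1-WT 1, or either mutant library, lost the call (adjusted p between 0.0888 and 0.597), and Nrgn was not called over all 293 cells (0.67; adjusted p = 0.97).

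Xist, the RNA that silences an X chromosome in female cells, was 874 and 600 CPM in wild-type libraries and 460 and 323 CPM in Idh1-R132H (-0.88 ± 0.17; edgeR adjusted p = 0.0281). It was carried by 78.3%, 57.3%, 38.8% and 35.8% of the 272 cells by library. RNA of any of 4 Y-linked genes was carried by 5.00%, 10.4%, 22.4% and 22.4%. At most 1 cell per library carried both. In lymphoid-primed cells, which are no members, Xist was 1300 and 933 CPM in the wild type and 789 and 574 CPM in the mutant libraries. Among all kept cells Xist was carried by 63.5%, 48.2%, 51.8% and 40.5%, with overlap between the genotypes. Y-linked RNA was carried by 6.44%, 19.5%, 27.4% and 33.9% of all kept cells, without overlap. Each library thus held cells of both kinds, in shares that moved with genotype among members and, for Y-linked RNA, among all kept cells. Sex of the cell and genotype cannot be told apart for Xist, and the part of sex in the other differences was not tested. Without Idh1-WT 1 or Idh1-R132H 2 the call was lost (adjusted p = 0.158 and 0.497).

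In non-cycling members, Actb (beta-actin) was 4249 and 5218 CPM in wild-type libraries and 6809 and 8135 CPM in Idh1-R132H (0.60 ± 0.10; edgeR adjusted p = 0.0339). It was the gene that DESeq2 also called (adjusted p = 0.00832). The MHC class II beta chain H2-Ab1 was 3107 and 3441 against 2249 and 2284 CPM (-0.59 ± 0.12; edgeR adjusted p = 0.0459). Neither pair of groups overlapped. In the MHC class II gate alone H2-Ab1 was 4615 and 4628 against 2900 and 3591 CPM, and Actb 5692 and 5558 against 7901 and 8352 CPM. Xist was 977 and 786 against 478 and 377 CPM in non-cycling members (-1.11 ± 0.22; edgeR adjusted p = 0.0459). Neutrophil and monocyte RNA differed between the libraries of this sum, with 12 markers, all detected, at 29538 and 3982 CPM in wild-type libraries and 3559 and 6267 CPM in Idh1-R132H. In Idh1-WT 1, S100a8 and S100a9 together had 1488 UMIs in this sum. The 2 cells of its Dntt or Kit gate held 905 of S100a8 and 476 of S100a9. The part of this RNA was not tested. Without the Dntt or Kit gate, Actb was 4916 and 5278 CPM in wild-type libraries against 7590 and 8807 CPM in Idh1-R132H. H2-Ab1 was then 3654 and 3832 against 2500 and 2493 CPM, and Xist 922 and 821 against 432 and 403 CPM. Without Idh1-R132H 2, no gene was called in non-cycling members, and without Idh1-WT 2, 14 were. Without Idh1-WT 1 the Actb call was lost (adjusted p = 0.288). H2-Ab1 lost its call without Idh1-WT 2 (adjusted p = 0.249), Idh1-R132H 1 (0.315) or Idh1-R132H 2 (0.752). Myl10 and Xist kept theirs in non-cycling members only when Idh1-WT 2 was the library left out.

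**Figure D5:**
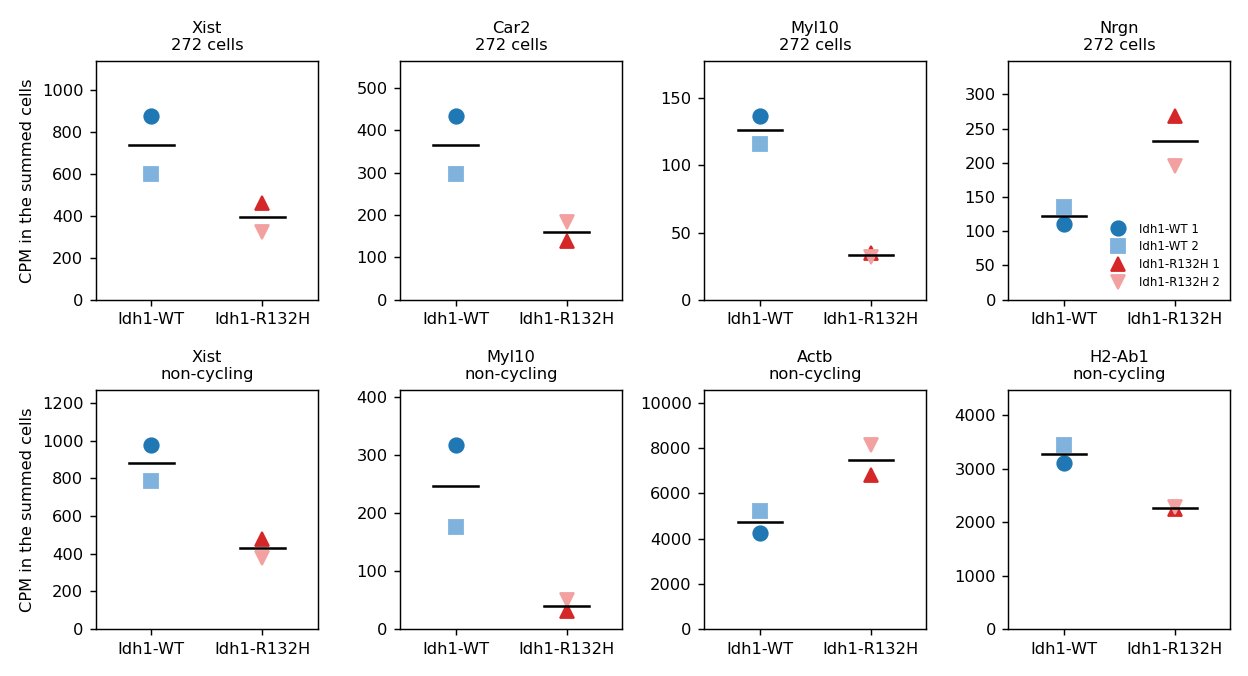
CPM in the summed cells of each library for the genes called between genotypes, over the 272 cells (top) and over non-cycling members (bottom), with 1 symbol per library and a bar at the group mean (n = 2). The genes shown were picked by the test. In every panel the 2 groups do not overlap, as for Myl10 over the 272 cells at 137 and 116 against 34.5 and 31.6 CPM.

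The 5 genes of the rule are given by genotype as a description, with no test, because the cells were chosen on them. In the 272 cells Igll1 was 540 and 693 CPM in wild-type libraries and 594 and 595 CPM in Idh1-R132H. Vpreb1 was 227 and 505 against 288 and 449 CPM, with a wide spread within each group. Vpreb3 was 2065 and 2527 against 2132 and 2261 CPM, Cd79a 1792 and 2083 against 2040 and 2116 CPM, and Cd79b 1124 and 1217 against 1066 and 1341 CPM. The libraries of the genotypes overlapped for each. Ebf1, which the rule did not use, was 1702 and 1979 against 1423 and 1828 CPM (-0.15 ± 0.11; edgeR adjusted p = 0.878) and the groups overlapped. Pax5, Lef1, Mki67, Top2a and Cd74 differed by between -0.07 and 0.39 on the log2 scale and were not called. Ms4a1 was 454 and 463 against 568 and 696 CPM (0.50 ± 0.14; edgeR adjusted p = 0.209). Il7r, the receptor of the cytokine on which mouse B cell precursors depend, was 137 and 104 against 65.2 and 79.1 CPM (-0.67 ± 0.29; edgeR adjusted p = 0.644). For Ms4a1 and Il7r the libraries did not overlap between groups although neither was called. With 2 libraries a group such separation has an exact permutation p of 0.33, so it is not read as a difference.

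The targeted gene Idh1 was barely sampled, at 6.67 and 9.49 CPM in wild-type libraries and 15.3 and 28.5 CPM in Idh1-R132H, from 19 UMIs in all. Such 3' tags count both alleles alike and cannot check the mutation. Gt(ROSA)26Sor, the locus often used for reporters, was 6.67 and 2.37 against 19.2 and 25.3 CPM from 16 UMIs. Over all 293 cells its difference was 2.33 ± 0.77 (edgeR adjusted p = 0.97). Rag1, Kit and Il2ra fell below the count filter in the 272 cells, and Dntt was 3.34, 152, 0 and 41.1 CPM.

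By list, the 272 cells gave no more than single calls. The list of surrogate light chain and pre-B receptor genes holds the genes of the rule and is not read. Over all 3673 genes tested 51.2% were higher in Idh1-R132H, 0.109% were called, and the median log2 difference was 0.01. Of 12 pro-B genes 7 were tested and none called, 6 were lower, and the median was -0.51. Their lowest p were those of Il7r and of the transcription factor Myb, which was 150 and 126 against 107 and 82.2 CPM. Of 16 S phase genes 15 were tested and none called, 13 were higher and the median was 0.22. The S phase genes Slbp (histone mRNA binding, 0.47 ± 0.17) and Pcna (the replication clamp, 0.35 ± 0.17) led with edgeR adjusted p of 0.515 and 0.709. All 16 G2 and M phase genes were tested, none was called, and 8 were higher and 8 lower, with a median of -0.01. Of 10 MHC class II genes 9 were tested and none called in the 272 cells, with a median of -0.14. In non-cycling members 8 were tested and 1 was called lower, H2-Ab1, with 6 of 8 lower and a median of -0.18, beside 51.9% lower, 0.242% called lower and a median of -0.02 over all 1242 genes tested. Of 17 interleukin 7 signalling genes 10 were tested and none called, with a median of -0.12, and the cyclin Ccnd2 (0.80 ± 0.26) and the kinase Pim1 (0.71 ± 0.30) had the lowest p. Of 13 isocitrate dehydrogenase and dioxygenase genes 5 were tested and none called. Idh2, the mitochondrial enzyme, was 123 and 114 against 119 and 85.4 CPM. None of the remaining lists on receptor signalling, transcription factors, recombination, small pre-B, immature B, survival, homing and interferon response held a called gene over the 272 cells. Their medians ran from -0.17 to 0.20. Among markers of other cell types, 10 of 12 neutrophil and monocyte genes were tested, none was called and their median was -0.30. Of 9 erythroid genes only Car2 was tested, and it was called lower. Of the T and NK, plasmacytoid dendritic, plasma cell and stem cell lists, 6 genes in all passed the filter and none was called.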

How the data were processed

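UMI counts per gene and barcode were used as deposited. Per the submitters' processing notes, the authors used Cell Ranger 4.0.0 to make the count matrices and worked on build GRCm38, also called mm10. Seurat is named there without a role. The deposited matrices held all barcodes of 27998 genes, and immunoglobulin RNA was not analysed here. From these counts the kept cells, members and gates were drawn with Python 3.11.15 (numpy 2.4.6, scipy 1.17.1, pandas 2.3.3). Members' counts were summed per library, since the library (1 mouse) is the replicate, and tested with edgeR 4.0.16 in R 4.3.3 (filterByExpr, TMM, robust quasi-likelihood, Benjamini-Hochberg, threshold 0.05). DESeq2 1.42.0 was an alternative, with other scalings, filters, member bounds, the replicate block and each library left out. CPM are counts per 1000000 UMIs of the summed cells. Counts shaped on the 272 cells were simulated with the same dispersion (spread between libraries) for every gene, and 3658 genes were tested. There the edgeR test recovered 54% of genes raised by a log2 change of 1 and all raised by 2. Of genes lowered by 1, it recovered 44.4% of the 45 that were tested. Real genes differ in spread, so these shares may not hold for them. Shares have Wilson intervals at 95%, which like the limits for a count of 0 cover counting error only, and exact permutation tests, which rest on the spread between libraries. Named genes were a fixed list (1 of its genes is not reported here), the called genes with the largest changes, and up to 2 genes per list with the lowest p, and genes that lead a gate were ranked by fold with the same direction in 4 libraries. Members, lists and tests were chosen with earlier results of these data known, and the bound of 50 Elane and Mpo UMIs was added after seeing values. Promoter sequences are RefSeq's (GRCm38.p6), found for all 3 genes sought.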

Additional observations from a re-analysis of the deposited data

How the results depend on the processing

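The number of genes called between genotypes moved with the processing. Over all members (0 called) it was 17 with a replicate block, 5 with no filter on low counts, 4 without the Elane and Mpo-rich cells and 10 without members lacking Ebf1, and it ranged from 2 to 116 when a library was left out (116 without Idh1-R132H 2). Without the Elane and Mpo-rich cells (4 called) it was 0 by DESeq2 and 16 with the block, and 2 to 18 with a library left out. In cycling members (0) the block gave 1 and leaving out a library 0 to 105, or 2 to 11 without the Elane and Mpo-rich cells. In non-cycling members (4) DESeq2 gave 1, the block 0 and leaving out a library 0 to 14. The shared replicate numbers do not show paired mice: deviations of same-numbered libraries correlated at -0.03 over all members, -0.08 in cycling and -0.08 in non-cycling members, with 2 pairs. The block kept all 4 calls over the 272 cells. The share in the Dntt or Kit gate differed by -0.77 percentage points after thinning to 1500 UMIs, against -1.96. Over all members, some genes that were not called changed sign: Vpreb1 was 0.0089 with the replicate block and 0.012 without the Elane and Mpo-rich cells. Without those cells Cd79a was 0.13, Cd79b 0.071 and Pax5 0.047. Without cells holding 3 or more UMIs of other lineages, which were 66.9% of members, Vpreb3 was 0.013, Cd79a 0.19 and Cd79b 0.32. At 4 or more UMIs for each sum of the rule Pax5 was 0.0099 and Top2a -0.0037. With a library left out the log2 difference ran from -0.62 to 0.70 for Vpreb1, -0.45 to 0.10 for Igll1, -0.60 to 0.12 for Vpreb3, -0.49 to 0.23 for Cd79a, -0.64 to 0.31 for Cd79b and -0.87 to 0.13 for Ebf1. It ran from -0.62 to 0.40 for Pax5, -4.45 to 1.27 for Dntt, -0.17 to 0.60 for Lef1, -0.049 to 0.55 for Mki67, -0.24 to 0.23 for Top2a, -0.26 to 0.72 for Ms4a1 and -0.83 to 0.14 for Cd74. The cause of these changes was not tested. The called genes kept their direction under every alternative run, though not their call. A stage with 6 to 15 cells per library limits the remaining gate.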

Other observations

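The Cd79 condition of the rule let in many cells rich in Elane and Mpo. Of 1764 cells with 2 or more Cd79a and Cd79b UMIs and no Cd3e, 810 carried 50 or more UMIs of Elane and Mpo. These 810 held 165 UMIs of Cd79a and 1911 of Cd79b. Cd79b made up 92.6% and 91.3% of Cd79 UMIs in such cells of Idh1-WT and 93.2% and 90.8% in those of Idh1-R132H, against 37.9% to 38.9% in cells of the same gate with Ebf1. Ebf1 was present in 3, 2, 3 and 4 of the 810 by library. Of all Elane and Mpo-rich kept cells, 18.3% to 23.8% met the Cd79 condition. Both bounds are counts of UMIs not scaled for depth, and the part of depth was not tested. Barcodes of 50 UMIs or fewer, which hold free RNA, carried Cd79b at 67.1 to 78.0 CPM and Cd79a at 39.0 to 55.1 CPM.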
